A study of Rattus norvegicus with 300 samples.

Results

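Probiotic bacteria given in drinking water were compared with their carrier sugar in the brain region labelled CGC of the rat, by counting RNA in 5 Probiotics libraries and 5 Maltodextrin libraries, 10 of the 300 libraries of the series. All libraries that the labels give this region and these treatments were taken. The Probiotics rats and the Maltodextrin rats were male Long Evans rats, 60 days old, treated for 3 weeks ad libitum. Probiotics rats drank a bacterial preparation whose strains the labels do not name and whose dose they state inconsistently; it is left out here. Maltodextrin rats drank maltodextrin at 10 g/L, a starch-derived carrier for such preparations, and it is the group set against Probiotics here. Control rats drank water and are given beside them for orientation. Fluoxetine (labelled FT), Bupropion and Desipramine rats drank antidepressants and entered the same statistical fit. Each library came from frozen tissue punches pooled by region before extraction, and the labels do not say how many rats went into a pool. The p-values therefore describe the spread among libraries, part or all of which may be technical.

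The labels do not spell out CGC, which is taken here as cingulate cortex, or PLC and ILC, the neighbouring regions used for comparison, taken as prelimbic and infralimbic cortex. Cingulate cortex is a frontal cortical area of excitatory projection neurons, inhibitory interneurons and glia that takes part in attention, pain and emotional behaviour. Bacteria of the gut can reach the brain's cells only indirectly, through nerves, hormones, immune signals and metabolites in the blood, and transcript levels in cortex are one place where such signals can be looked for. Neurons answer recent activity by transcribing immediate early genes, while the proteins of synaptic vesicles and ion channels set how readily they release transmitter and fire.

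Total counts ran from 7370441 to 9492866 in the Probiotics libraries, from 6830811 to 8087261 in the Maltodextrin libraries and from 9745762 to 13509290 in the Control libraries. At least 1 count was found for 15078 to 15336 genes in the Probiotics libraries and for 14063 to 14309 genes in the Maltodextrin libraries. Total counts of these groups overlapped while their numbers of genes did not, and the cause was not tested. Library names run in blocks by treatment, so any difference in handling that followed this order cannot be told apart from treatment. Maltodextrin replicate 3 stood somewhat apart, with a TMM scaling factor of 1.15 beside 1.03 to 1.08 in the other 9 libraries; without it 1723 genes were higher and 1780 lower, beside 1899 and 1917 with it. The tissue carried the markers of cortex. Slc17a7, the vesicular glutamate transporter of cortical excitatory neurons, was at 514 ± 17.5 CPM (counts scaled to the library total) in Probiotics and 413 ± 21.5 CPM in Maltodextrin, and Tbr1, a transcription factor of cortical projection neurons, was at 20.3 ± 1.95 CPM in Probiotics and 13.4 ± 3.05 CPM in Maltodextrin (SD, n = 5 libraries each). Dbh and Tph2, enzymes of noradrenaline and serotonin neurons, stayed at or below 2.55 CPM on average in both groups. The expression profiles of all 10 libraries were closest to the CGC libraries of the other treatments among the 10 regions. In a principal component analysis with the Control libraries, the first component (30.5% of the variance) set Control apart from both other groups, and the second (20.8%) set Probiotics, at 15.8 to 18.7, apart from Maltodextrin, at -17.4 to -13.8.

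Of 11873 genes tested with edgeR's quasi-likelihood test and Benjamini-Hochberg adjustment, 1899 were higher in Probiotics than in Maltodextrin (16%) and 1917 were lower (16.1%) at an adjusted p under 0.05, together 32.1% of genes. Most changes were small: the median size among called genes was 0.359 on the log2 scale, 353 genes were higher by more than 1.5-fold and 349 lower, and 48 were higher by more than 2-fold and 57 lower. The CPM ranges of the groups did not overlap for 2918 genes (24.6%), of which 1061 were called higher and 1486 called lower. The even split rests on the scaling: with library totals alone, a setting chosen after the data were seen, 1340 genes were higher and 2449 lower, or 35.4% of calls higher against 49.8% with the trimmed mean (TMM) scaling used throughout. The median change of all genes was -0.00598 with TMM and -0.0621 with library totals. For 4838 genes the unadjusted p was under 0.05.

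**Figure D1:**
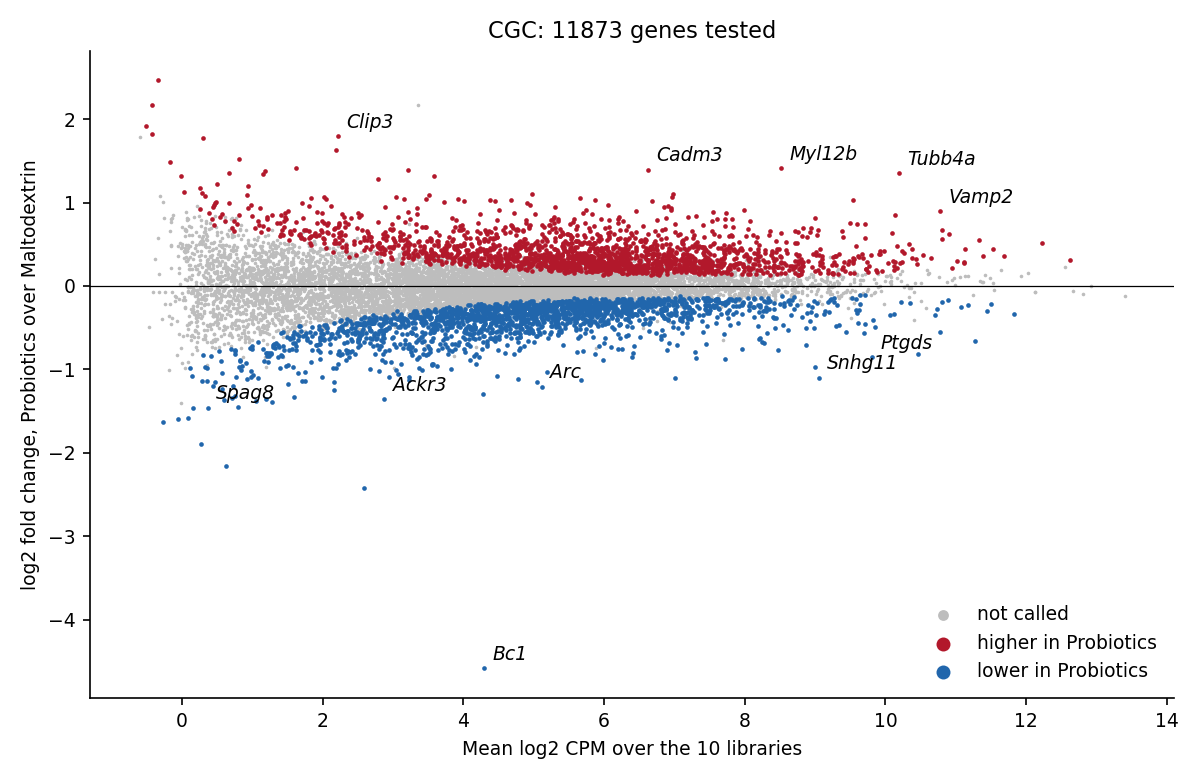
Each point is 1 of 11873 genes, placed by its mean log2 CPM over the 5 Probiotics and 5 Maltodextrin libraries of CGC (horizontal) and its log2 fold change, Probiotics over Maltodextrin (vertical); red and blue points are genes called higher and lower at an adjusted p under 0.05. Calls lie on both sides of 0 over the whole range of expression, most of them within 2-fold, and Bc1 stands alone at the bottom at -4.58.

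The genes with the largest positive changes at high levels included parts of the cytoskeleton and a cell adhesion molecule. Myl12b, a regulatory light chain of non-muscle myosin, was at 583, 629, 588, 639 and 656 CPM in the Probiotics libraries, against 233, 248, 234, 250 and 243 CPM in the Maltodextrin libraries. The groups did not overlap. The log2 fold change was 1.41 ± 0.07 (SE, adjusted p = 3.8e-16), or 2.66-fold. Because Myl12a is a close copy of this gene, how the counting divided reads between them is uncertain.

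Tubb4a, a beta-tubulin of neurons and myelinating oligodendrocytes, was at 1966, 1965, 1813, 1898 and 2066 CPM in Probiotics, against 787, 716, 703, 870 and 857 CPM in Maltodextrin. Again no Maltodextrin library came near the lowest Probiotics library, and the log2 fold change was 1.36 ± 0.10 (SE, adjusted p = 4.81e-12). Cadm3, a synaptic cell adhesion molecule, was at 153, 165, 157, 178 and 176 CPM in Probiotics, against 67.5, 51.4, 69.5, 76.8 and 62.3 CPM in Maltodextrin (log2 fold change 1.39 ± 0.09, SE, adjusted p = 3.85e-13). Both Tubb4a and Cadm3 thus had groups that lay far apart. Clip3, a linker protein of microtubules and the trans-Golgi network, had the largest positive change among called genes with a mean log2 CPM above 0 and ranges apart, 1.80 ± 0.21 on the log2 scale (adjusted p = 4.9e-08), at the low level of 8.61 ± 1.83 CPM in Probiotics and 2.55 ± 0.39 CPM in Maltodextrin (SD, n = 5 each). Also among the 10 highest were Abca13, Golga7b, Ccdc42, Tmem259 and Rcan3, with log2 fold changes of 1.38 to 1.77 and, in both groups, mean levels under 16 CPM.

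Where the water-fed rats stood differed from gene to gene. Myl12b averaged 356 CPM and Cadm3 89.4 CPM in Control, between Probiotics and Maltodextrin, whereas Tubb4a averaged 1736 CPM in Control, close to Probiotics. The log2 change of Tubb4a was 0.02 for Probiotics over Control (adjusted p = 0.912) and -1.34 for Maltodextrin over Control (adjusted p = 7.26e-12). Those comparisons share libraries with each other and with the one described here. Of all genes, 45.6% were called between Probiotics and Control and 46.3% between Maltodextrin and Control. For all 10 of the highest genes, Maltodextrin had the lowest mean CPM of the 6 treatments, while Probiotics had the highest mean for 3 of them. For 8 of the 10 lowest genes, Maltodextrin had the highest mean of the 6 treatments, and Probiotics had the lowest mean for 1. These genes were taken for their difference between Probiotics and Maltodextrin in the same libraries, so extreme ranks of these groups are partly fixed by the choice.

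**Figure D2:**
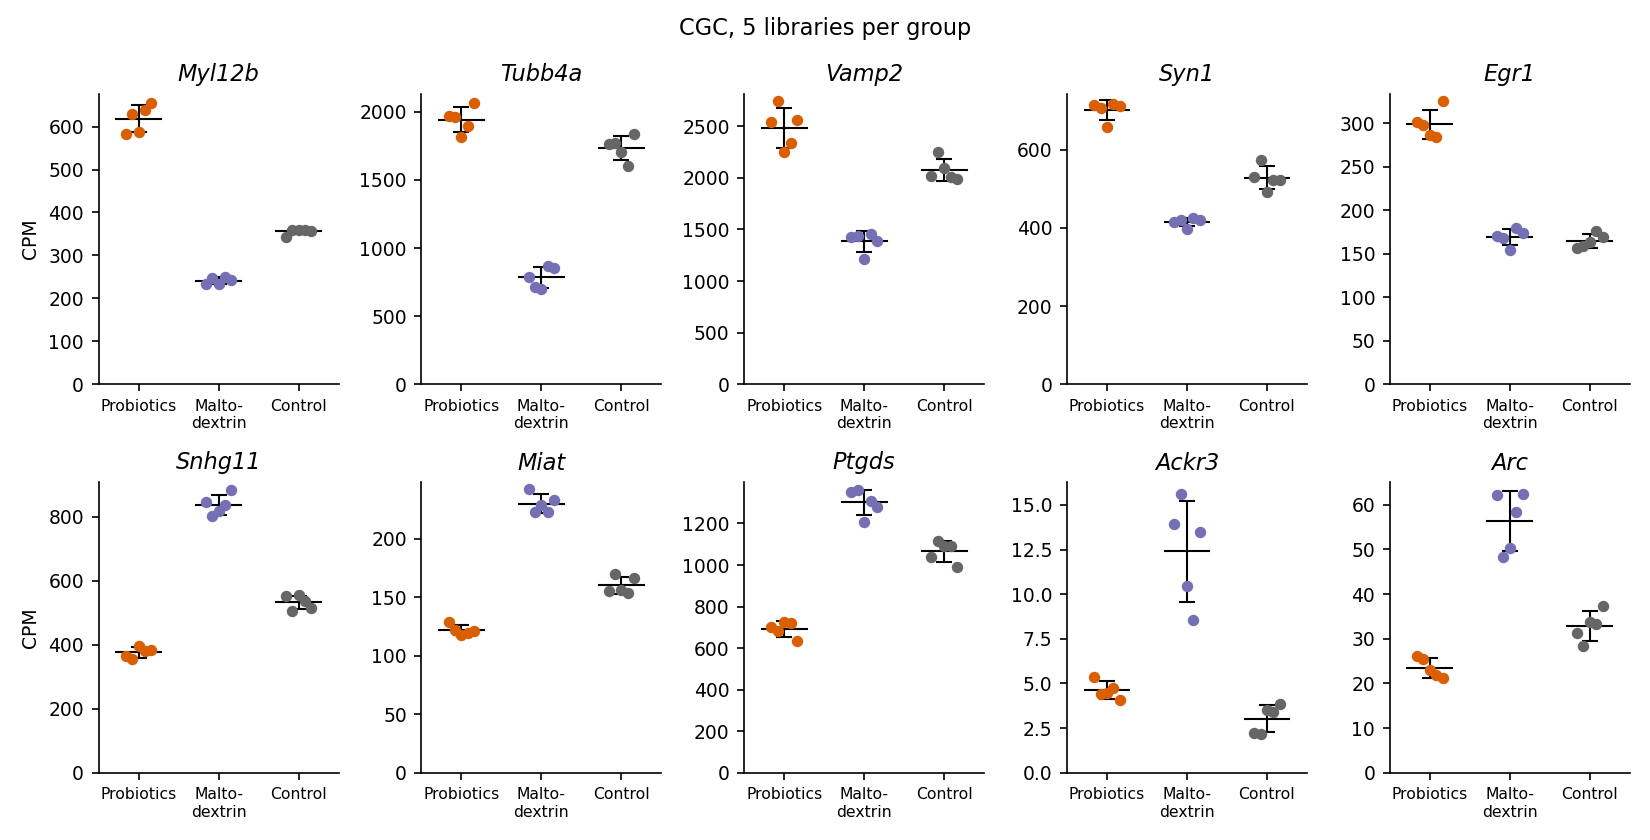
CPM of 10 genes in each CGC library (points), with the mean and SD of each group (line and bar), for Probiotics, Maltodextrin and Control, 5 libraries each; every vertical axis starts at 0. In the upper row Probiotics lies above Maltodextrin, in the lower Snhg11, Miat, Ptgds, Ackr3 and Arc lie below it, and Control sits at different places, from near Probiotics for Tubb4a to near Maltodextrin for Egr1.

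Among genes lower in Probiotics, 2 long non-coding RNAs of neuronal nuclei had small spread and large change. Snhg11, the host transcript of small nucleolar RNAs, was at 365, 354, 397, 381 and 384 CPM in Probiotics, against 846, 802, 819, 835 and 882 CPM in Maltodextrin. Miat, which is retained in the nucleus, was at 129, 122, 118, 120 and 121 CPM in Probiotics, against 242, 223, 228, 223 and 233 CPM in Maltodextrin. Neither showed any overlap: Snhg11 changed by -1.10 ± 0.06 (SE, adjusted p = 3.8e-16) and Miat by -0.86 ± 0.06 (adjusted p = 3.85e-13) on the log2 scale. They were the only 2 of 10 listed nuclear long non-coding RNAs found in the table by their symbols.

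Ackr3, an atypical receptor that scavenges the chemokine CXCL12, was at 5.37, 4.43, 4.49, 4.77 and 4.07 CPM in Probiotics, against 13.9, 15.6, 10.4, 8.56 and 13.5 CPM in Maltodextrin. It changed by -1.36 ± 0.17 on the log2 scale (SE, adjusted p = 9.91e-08) with no overlap. Ccl19, a chemokine that attracts lymphocytes and dendritic cells, changed by -1.33 ± 0.20 (adjusted p = 5.33e-06) at the lower level of 1.42 to 2.17 CPM in Probiotics and 3.90 to 5.19 CPM in Maltodextrin. Zfp692, a zinc finger protein, changed by -1.30 and Plk5, a brain-expressed polo-like kinase relative, by -1.24. Spag8, Col15a1 and Defb1, with mean levels under 4 CPM in both groups, had changes of -1.46 to -1.34.

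Bc1 headed the list of lower genes on the strength of 1 library. This short non-coding RNA of dendrites, which represses translation, was at 8.22, 8.01, 9.73, 9.92 and 8.41 CPM in Probiotics, against 1006, 25.4, 27.8, 20.6 and 15.2 CPM in Maltodextrin. Although the ranges are apart, Maltodextrin replicate 1 stands far above the other 4 libraries of its group. The log2 fold change was -4.58 ± 1.11 (SE, adjusted p = 0.00171), and without that library it was -1.26 (adjusted p = 0.352).

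Genes of the synaptic vesicle and its release machinery were mostly higher in Probiotics. Of 22 tested members, 17 were higher and 1 was lower, beside 16% and 16.1% of all genes. Their median log2 fold change was 0.415 against -0.00598 over all genes. Vamp2, the vesicle SNARE protein, was at 2543, 2740, 2248, 2338 and 2557 CPM in Probiotics, against 1422, 1438, 1215, 1456 and 1386 CPM in Maltodextrin. Syn1, a phosphoprotein that tethers vesicles to actin, was at 715, 707, 657, 717 and 713 CPM in Probiotics, against 414, 420, 397, 424 and 420 CPM in Maltodextrin. Both had groups several SDs apart, with log2 fold changes of 0.90 ± 0.07 (SE, adjusted p = 4.81e-12) for Vamp2 and 0.81 ± 0.05 (adjusted p = 3.85e-13) for Syn1. Syt1, the calcium sensor of fast release, had 651 ± 16 CPM in Probiotics and 418 ± 46.1 CPM in Maltodextrin (0.70 ± 0.06, adjusted p = 2.46e-10).

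The exception in this list was Syp, the abundant vesicle membrane protein synaptophysin. It was at 149, 116, 156, 144 and 147 CPM in Probiotics, against 217, 250, 261, 211 and 257 CPM in Maltodextrin, a log2 fold change of -0.69 ± 0.14 (SE, adjusted p = 0.000258) with no overlap. Sv2b, Snap25, Cplx1 and Unc13a were not called.

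Voltage-gated potassium and HCN channels, which repolarise neurons and set their resting excitability, had 14 higher and 1 lower member of 24, beside 16% and 16.1% of all genes, with a median log2 fold change of 0.237. Kcnc4, a fast channel subunit of the Kv3 family, was at 90.0, 84.8, 86.8, 84.9 and 87.2 CPM in Probiotics, against 45.1, 39.5, 43.1, 46.7 and 45.9 CPM in Maltodextrin. Its groups lay wide apart, at a log2 fold change of 1.03 ± 0.09 (SE, adjusted p = 1.69e-10). Its relatives did not all move alike: Kcnc1 changed by 0.34, whereas Kcnc2 changed by -0.16 (adjusted p = 0.0275). That call of Kcnc2 was lost without Probiotics replicate 1 or 3, or without Maltodextrin replicate 2, 3 or 5. The CPM ranges were apart for 5 of the 24 members, a smaller share than the 24.6% of all genes. Voltage-gated sodium and calcium channels were split, with 7 higher and 6 lower of 23.

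Transmitter receptors were called about as often as the 32.1% of all genes, and in both directions. AMPA and NMDA receptor subunits had 2 higher and 2 lower of 10: Grin2d, an NMDA subunit of interneurons, changed by 1.35 ± 0.30 and Grin2a by 0.38, while the AMPA subunit Gria4 changed by -0.32. Gria2, the other lower subunit (-0.17, adjusted p = 0.0486), lost its call in 13 of 18 settings, among them DESeq2 and the omission of any 1 Maltodextrin library or of Probiotics replicate 1, 3 or 4. GABA-A subunits had 4 higher and 1 lower of 12, with Gabra3 at 0.68 and Gabrb2 at 0.36. Only 2 GABA-A subunits were higher without Probiotics replicate 4, without Maltodextrin replicate 4 or 5, and with upper quartile factors or library totals. Of 11 serotonin receptors tested, 3 were higher and 1 lower. Only 1 was higher with library totals, without Probiotics replicate 2, 4 or 5, or without Maltodextrin replicate 1, 2 or 4, and 0 were lower without Maltodextrin replicate 3. Htr1a, the inhibitory receptor that also acts as autoreceptor on raphe neurons, was at 7.06, 6.74, 6.36, 5.80 and 5.83 CPM in Probiotics, against 4.83, 3.29, 5.42, 3.65 and 3.09 CPM in Maltodextrin. Its ranges came close without overlapping (log2 fold change 0.71 ± 0.18, SE, adjusted p = 0.00254), and Htr2c, a Gq-coupled serotonin receptor, changed by -0.31. None of 9 adrenergic and dopamine receptors, 4 genes of tryptophan and kynurenine metabolism, or 13 Toll-like receptor and cytokine signalling genes were called by edgeR's test. By unadjusted p under 0.05 they numbered 1, 0 and 0 in these lists, and DESeq2 called 0 of them. Without a filter on low counts 2 genes of tryptophan metabolism were higher, and without Probiotics replicate 5, 1 gene of Toll-like receptor and cytokine signalling was higher.

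Oxt and Bdnf, genes of the peptide oxytocin and of a neuronal growth factor, had weaker calls. Oxt was at 2.74, 2.42, 3.37, 1.68 and 3.80 CPM in Probiotics, against 2.05, 0.43, 1.13, 0.98 and 0.49 CPM in Maltodextrin, with overlapping ranges (log2 fold change 1.52 ± 0.47, SE, adjusted p = 0.0122). A higher mean of Oxt in Probiotics was not particular to CGC: it was 2.81 against 0.40 CPM in PLC and 2.90 against 1.11 CPM in ILC. Bdnf was at 93.2, 93.0, 104, 105 and 99.2 CPM in Probiotics, against 86.5, 94.95, 109, 84.2 and 83.7 CPM in Maltodextrin, and the Maltodextrin range spanned that of Probiotics. Its call (log2 fold change 0.17 ± 0.06, adjusted p = 0.0417) was lost in 11 of 18 alternative settings. Fkbp5, a chaperone induced by glucocorticoids, was at 20.6 to 25.5 CPM in Probiotics and 19.0 to 26.2 CPM in Maltodextrin, a log2 fold change of -0.0043 (adjusted p = 0.995).

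Immediate early genes were split in direction. Of 28 tested members, 5 were higher and 6 lower, which is close to the 32.1% of all genes called, and their median log2 fold change was -0.0818. Arc, whose protein is made at active synapses and removes AMPA receptors, was at 26.0, 25.4, 23.0, 21.8 and 21.2 CPM in Probiotics, against 62.2, 48.3, 50.4, 58.4 and 62.4 CPM in Maltodextrin. No Probiotics library reached 27 CPM and no Maltodextrin library fell below 48 CPM, at a log2 fold change of -1.21 ± 0.10 (SE, adjusted p = 2.74e-11). In Control rats Arc was at 28.4 to 37.3 CPM. It changed by -0.62 in Probiotics over Control (adjusted p = 4.98e-06) and by 0.58 in Maltodextrin over Control (adjusted p = 5.28e-06).

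Npas4, an activity-induced transcription factor of neurons, was at 11.9, 11.9, 11.1, 10.8 and 10.0 CPM in Probiotics, against 19.2, 16.5, 17.9, 22.3 and 23.4 CPM in Maltodextrin. Junb, a subunit of the AP-1 transcription factor, was at 18.0, 19.2, 20.3, 16.9 and 19.4 CPM in Probiotics, against 31.3, 27.4, 33.8, 28.2 and 30.9 CPM in Maltodextrin. Both were lower without overlap, by -0.77 ± 0.13 (SE, adjusted p = 1.35e-05) and -0.64 ± 0.11 (adjusted p = 2.53e-05) on the log2 scale. Egr4, Egr2 and Ier5 were the other lower members, at -0.58, -0.40 and -0.28, and with library totals 9 members were lower. Fos, the partner of Junb in AP-1, was at 15.7 to 23.2 CPM in Probiotics and 18.9 to 25.8 CPM in Maltodextrin (log2 fold change -0.21, adjusted p = 0.129).

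Egr1, a zinc finger transcription factor induced by synaptic activity, moved the other way. It was at 301, 298, 286, 284 and 326 CPM in Probiotics, against 171, 168, 154, 180 and 174 CPM in Maltodextrin, far apart at a log2 fold change of 0.87 ± 0.15 (SE, adjusted p = 3.46e-05). Its relative Egr3 was at 8.01, 8.11, 7.74, 7.35 and 7.87 CPM in Probiotics, against 5.42, 3.44, 4.28, 4.35 and 5.07 CPM in Maltodextrin, also without overlap (0.85 ± 0.20, adjusted p = 0.00156). Sik1, a kinase induced by cyclic AMP, changed by 0.88 and Nptx2, a secreted pentraxin that clusters AMPA receptors, by 0.49. Within the Egr family, then, Egr1 and Egr3 were higher while Egr2 and Egr4 were lower.

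Egr1 and Egr2 are shown because they share a promoter feature and moved in opposite directions. Of the 28 tested immediate early genes, 23 had a promoter in the RefSeq set used (GRCr8, 300 bases from 250 before to 50 after the start). The CArG box, a serum response element read by serum response factor, was found on either strand in 2 of those 23, Egr1 and Egr2, and in 1.64% of all 33469 promoters. The Egr1 promoter (GRCr8 chr18:26736828-26737127, plus strand) held 2 boxes, and the Egr2 promoter (GRCr8 chr20:21054392-21054691, minus strand) held 1; capitals mark them.
Egr1: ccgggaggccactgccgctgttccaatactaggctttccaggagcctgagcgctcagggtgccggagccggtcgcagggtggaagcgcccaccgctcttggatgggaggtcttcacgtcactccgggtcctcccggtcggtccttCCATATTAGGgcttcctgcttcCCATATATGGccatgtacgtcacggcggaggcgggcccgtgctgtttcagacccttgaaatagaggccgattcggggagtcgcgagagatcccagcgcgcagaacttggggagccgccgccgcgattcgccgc
Egr2: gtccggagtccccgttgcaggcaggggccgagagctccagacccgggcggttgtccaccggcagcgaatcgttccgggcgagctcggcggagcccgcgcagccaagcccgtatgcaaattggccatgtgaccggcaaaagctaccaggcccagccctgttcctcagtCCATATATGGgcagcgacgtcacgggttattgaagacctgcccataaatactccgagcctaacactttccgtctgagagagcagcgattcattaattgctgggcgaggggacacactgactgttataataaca
The cyclic AMP response element TGACGTCA, searched on both strands, was in neither of them and in 1.83% of all promoters. Its half-site TGACG, which is contained in that element, was in both and in 21.2% of all promoters. The matches describe letters in the window and do not show binding.

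**Figure D3:**
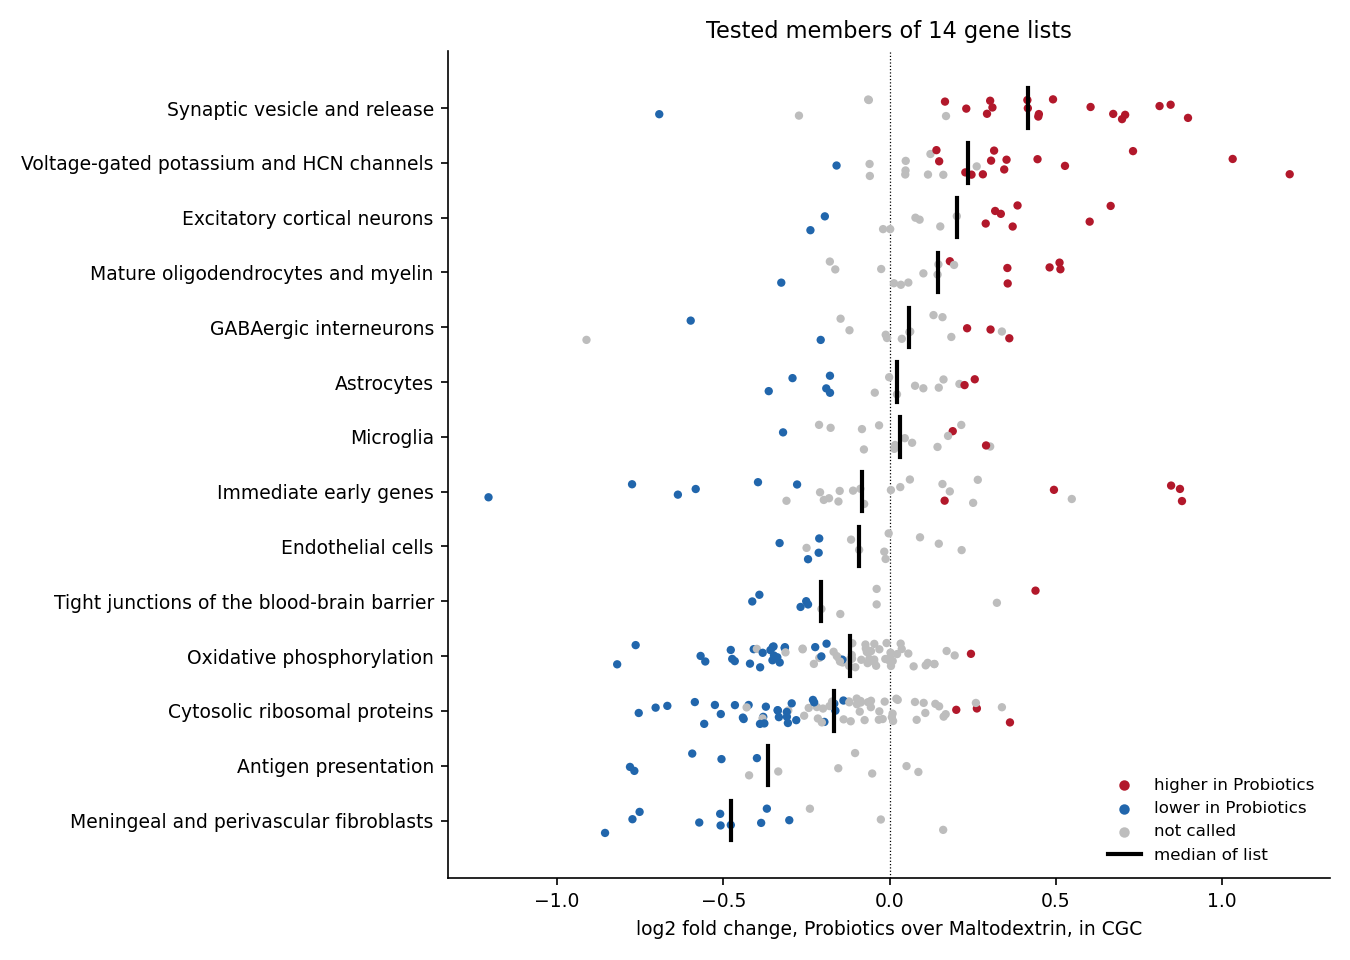
Log2 fold changes in CGC, Probiotics over Maltodextrin, for each tested member of 14 gene lists (points; red and blue mark genes called higher and lower, grey those not called), with the median of each list as a black bar. Synaptic vesicle genes lie mostly right of 0, fibroblast and antigen presentation genes left of it, and the immediate early genes spread to both sides, from -1.21 to 0.88.

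Genes of oxidative phosphorylation and of cytosolic ribosomes were mostly lower where they were called, whereas genes of hypoxia and glycolysis were not. The hypoxia and glycolysis list had 6 higher and 2 lower of 21, beside 16% and 16.1% of all genes, with a median log2 fold change of 0.127. Of these genes, 3 were higher without Maltodextrin replicate 3, and 10 with only the 10 libraries. Among nuclear genes of oxidative phosphorylation, 24 of 73 were lower and 1 was higher, beside 16.1% of all genes lower, with a median log2 fold change of -0.119. Cox7c, a small subunit of cytochrome c oxidase, was at 1203, 1139, 1089, 1034 and 1105 CPM in Probiotics, against 2297, 2208, 1591, 2060 and 2020 CPM in Maltodextrin. Sdhd, a membrane anchor of succinate dehydrogenase, was at 106, 88.1, 100.2, 85.8 and 90.8 CPM in Probiotics, against 167, 171, 168, 157 and 169 CPM in Maltodextrin. Both were apart, with log2 fold changes of -0.82 ± 0.09 (SE, adjusted p = 1.25e-08) and -0.76 ± 0.07 (adjusted p = 1.42e-10).

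Cytosolic ribosomal protein genes had 29 lower and 3 higher of 75, beside 16.1% and 16% of all genes, with a median of -0.166. Rpl9 was at 394, 370, 403, 374 and 358 CPM in Probiotics, against 692, 676, 533, 638 and 666 CPM in Maltodextrin, apart at -0.70 ± 0.10 (SE, adjusted p = 8.31e-07), and Rps27 changed by -0.75 while Rpl14 changed by 0.36. The number of lower ribosomal genes rested on the libraries and the scaling, with 19 without Maltodextrin replicate 1, 35 without Maltodextrin replicate 3 and 37 with library totals. Because many ribosomal genes have near-identical processed copies, counts of single members are uncertain.

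Markers of meningeal and perivascular fibroblasts were lower: 10 of 13 tested members fell and 0 rose, beside 16.1% and 16% of all genes. Their median log2 fold change was -0.477, and their summed level was 905 to 1014 CPM in Probiotics and 1591 to 1744 CPM in Maltodextrin. Ptgds, prostaglandin D synthase, which oligodendrocytes also make, supplied most of that sum. It was at 702, 682, 725, 723 and 633 CPM in Probiotics, against 1352, 1360, 1208, 1309 and 1277 CPM in Maltodextrin, apart at -0.86 ± 0.07 (SE, adjusted p = 2.74e-11). Igfbp2, a binding protein of insulin-like growth factors, was at 39.7, 39.2, 46.2, 39.8 and 40.0 CPM in Probiotics, against 77.2, 76.1, 65.1, 68.2 and 76.9 CPM in Maltodextrin. Col3a1, a fibrillar collagen, was at 23.8, 25.8, 23.7, 22.2 and 25.1 CPM in Probiotics, against 36.3, 35.4, 36.9, 35.6 and 34.2 CPM in Maltodextrin. Neither of these had overlapping groups, and they changed by -0.77 ± 0.09 (adjusted p = 1.04e-07) and -0.51 ± 0.07 (adjusted p = 1.28e-06). Col1a1, Col1a2 and Aebp1 were not called. In bulk tissue, fewer cells of a type and less RNA per cell cannot be told apart, and how much of the cortical surface each punch took was not tested.

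Markers of the other cells of the vessel wall had smaller median changes. Pericyte and smooth muscle markers had 2 lower and 1 higher of 11 (median -0.135, summed level 209 to 217 CPM in Probiotics and 232.5 to 243 CPM in Maltodextrin), beside 32.1% of all genes called. Tagln, an actin-binding protein of smooth muscle, was at 33.0, 32.6, 30.9, 31.8 and 32.4 CPM in Probiotics, against 47.4, 47.1, 50.5, 45.7 and 54.8 CPM in Maltodextrin, apart at -0.56 ± 0.08 (SE, adjusted p = 2.19e-06). Des and Abcc9, the other called members, lost their calls in 7 and 9 of 18 settings. Endothelial markers had 4 lower and 0 higher of 13, beside 16.1% and 16% of all genes (median -0.0913, summed level 548 to 580 CPM in Probiotics and 619 to 661 CPM in Maltodextrin). The lower ones were led by Slc2a1, the glucose transporter of the barrier, at -0.33 ± 0.08 (SE, adjusted p = 0.00136). Only 1 endothelial marker was lower without Probiotics replicate 3 or 4 or Maltodextrin replicate 1 or 4, and 2 without Probiotics replicate 5. Tight junction genes had 5 lower and 1 higher of 11, beside the same shares of all genes. The lower ones included Ocln at -0.25 and Cldn5 at -0.24, and Cldn5 lost its call in 7 of 18 settings. Of the tight junction genes, 3 were lower without Probiotics replicate 3 or 4, or without Maltodextrin replicate 1, 4 or 5. Vegfa, the growth factor that acts on endothelium, was at 20.3, 16.1, 23.5, 18.8 and 15.3 CPM in Probiotics, against 35.4, 37.5, 33.1, 30.9 and 33.4 CPM in Maltodextrin, apart at -0.80 ± 0.12 (adjusted p = 3.12e-06).

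Antigen presentation genes had 5 lower and 0 higher of 12, beside 16.1% and 16% of all genes, with a median of -0.367. B2m, the invariant chain of class I molecules, was at 444, 440, 463, 440 and 413 CPM in Probiotics, against 661, 681, 625, 631 and 645 CPM in Maltodextrin. It was apart at -0.51 ± 0.05 (SE, adjusted p = 7.11e-09), and the class II genes RT1-Da, RT1-Ba and Cd74 changed by -0.78, -0.77 and -0.40. Reads of RT1 genes may be divided among close copies. Microglial markers gave 2 higher and 1 lower of 16, beside 32.1% of all genes called (median 0.0314, summed level 1054 to 1150 CPM in Probiotics and 1056 to 1158 CPM in Maltodextrin). Only 1 was higher without Probiotics replicate 2 or without Maltodextrin replicate 1, 3 or 5, and 4 were higher with only the 10 libraries.

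Neuronal and glial marker lists had calls in both directions, to be read beside 16% of all genes higher and 16.1% lower. Excitatory cortical markers had 7 higher and 2 lower of 15 (median 0.202), with Tbr1 at 0.66, Slc17a7 at 0.37 and Slc17a6 at -0.24, and 4 higher with library totals or without Probiotics replicate 1. Interneuron markers had 3 higher and 2 lower of 17, a share near the 32.1% of all genes called, among them the 2 glutamate decarboxylases in opposite directions, Gad2 at 0.36 and Gad1 at -0.21. Astrocyte markers had 2 higher and 5 lower of 15, with the water channel Aqp4 at -0.18 and Gfap at 0.08 (adjusted p = 0.433). The number of astrocyte markers higher ran from 1 with library totals to 5 with only the 10 libraries. Myelin and mature oligodendrocyte markers had 6 higher and 1 lower of 17. Mbp, a main protein of compact myelin, was at 5704, 5942, 5877, 6128 and 6100 CPM in Probiotics, against 4260, 4025, 3766, 4955 and 4618 CPM in Maltodextrin. It was apart at 0.51 ± 0.11 (SE, adjusted p = 0.000687), while Cldn11, a myelin tight junction protein, changed by -0.33.

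Ttr, made by the choroid plexus, was at 51.6, 51.3, 47.5, 49.1 and 52.0 CPM in Probiotics, against 52.6, 26.9, 33.0, 21.1 and 25.5 CPM in Maltodextrin. Maltodextrin replicate 1 overlapped the Probiotics libraries and the other 4 lay below them, at a log2 fold change of 0.73 ± 0.15 (SE, adjusted p = 0.000282). A higher mean of Ttr was not particular to CGC. In Probiotics against Maltodextrin it was 62.6 against 21.05 CPM in PLC and 64.4 against 33.7 CPM in ILC. Of 14 choroid plexus and ependyma markers, 9 were too low to be tested. Clock genes were split: Nr1d1, a repressor of the clock, was at 104 ± 5.98 CPM in Probiotics and 63.3 ± 1.60 CPM in Maltodextrin (log2 fold change 0.78 ± 0.10, SE, adjusted p = 2.22e-07), and Per3 and Per2 changed by -0.37 and -0.36. The labels do not state the time of day at which brains were taken.

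Whether neighbouring cortex changed in the same way was asked by testing the CGC change against the PLC and ILC changes. PLC and ILC carried cortical markers in both groups, with Slc17a7 at 442 ± 18.4 CPM in Probiotics and 326 ± 23.6 CPM in Maltodextrin in PLC, and at 345 ± 17.5 CPM in Probiotics and 274 ± 10.6 CPM in Maltodextrin in ILC. Between Probiotics and Maltodextrin, 47% of 12109 genes were called in PLC and 50.7% of 12228 in ILC. The change in CGC was unlike that in PLC for 4622 of 11759 genes (39.3%) and unlike that in ILC for 4406 of 11872 (37.1%), in an edgeR quasi-likelihood test of the interaction. Several leading higher genes of CGC were higher in each region. In CGC, PLC and ILC, Tubb4a changed by 1.36, 1.75 and 1.46, Cadm3 by 1.39, 1.33 and 1.24, and Clip3 by 1.80, 2.13 and 1.65. Myl12b changed by 1.41, 1.21 and 0.58, whereas Abca13 changed by 1.77, 1.64 and -1.12. Genes described next were taken for a small interaction p or as immediate early genes.

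Fcho1, an endocytic adaptor that starts clathrin pits, had among the largest regional differences. In CGC it was at 36.8, 36.9, 36.05, 34.2 and 34.5 CPM in Probiotics, against 74.2, 80.3, 72.8, 87.3 and 89.0 CPM in Maltodextrin, a log2 fold change of -1.12 without overlap. Its change was 1.87 in PLC and 2.55 in ILC, so that CGC differed from PLC by -2.96 ± 0.13 (SE, adjusted p = 7.5e-14) and from ILC by -3.72 (adjusted p = 4.55e-17). Leng8, an RNA-processing protein, likewise changed by -1.10 in CGC, 0.48 in PLC and 1.90 in ILC, and Miat by -0.86, 0.51 and 0.96. Shank1, a scaffold of the postsynaptic density, was higher in all 3 regions, by 0.62 in CGC, 2.95 in PLC and 1.80 in ILC, and CGC differed from PLC by -2.31 ± 0.07 (adjusted p = 1.87e-18). Camk2a, the calcium-dependent kinase of excitatory synapses, changed by 0.32 in CGC, 1.24 in PLC and 1.78 in ILC, and its call in CGC was lost in 12 of 18 settings.

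Immediate early genes differed between the regions. Arc changed by -1.21 in CGC, 0.70 in PLC (adjusted p = 3.46e-05) and 0.59 in ILC (adjusted p = 0.006), with a CGC to PLC difference of -1.87 ± 0.11 (SE, adjusted p = 1.08e-11). Junb changed by -0.64 in CGC, 0.57 in PLC and 0.96 in ILC, and Npas4 by -0.77 in CGC, 0.08 in PLC (adjusted p = 0.616) and 1.30 in ILC. Egr1 was higher in all 3, at 0.87, 1.60 and 1.68. Of the 11 members called in CGC, 10 differed from PLC in the interaction test, and all 10 differences but that of Bdnf were negative; these members were taken for their change in CGC, which enters the difference.

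For other lists the values in the 3 regions stand side by side without a test. The median log2 fold change of the synaptic vesicle list was 0.415 in CGC, 0.726 in PLC and 0.362 in ILC, against medians of -0.00598, 0.0588 and -0.0073 over all genes tested there. Syn1 changed by 0.81 in CGC and 1.70 in PLC (difference -0.86 ± 0.06, SE, adjusted p = 9.85e-11). For oxidative phosphorylation the medians were -0.119, -0.5 and -0.484, and for cytosolic ribosomal proteins -0.166, -0.202 and -0.307. The fibroblast list had medians of -0.477 in CGC, 0.087 in PLC and 0.0149 in ILC. Its members did not all follow these medians. Ptgds, which supplied most of the list's sum in CGC, changed by -0.86 in CGC, -0.52 in PLC and -0.40 in ILC. Of the 10 members called lower in CGC, 4 had a change above 0 in PLC.

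**Figure D4:**
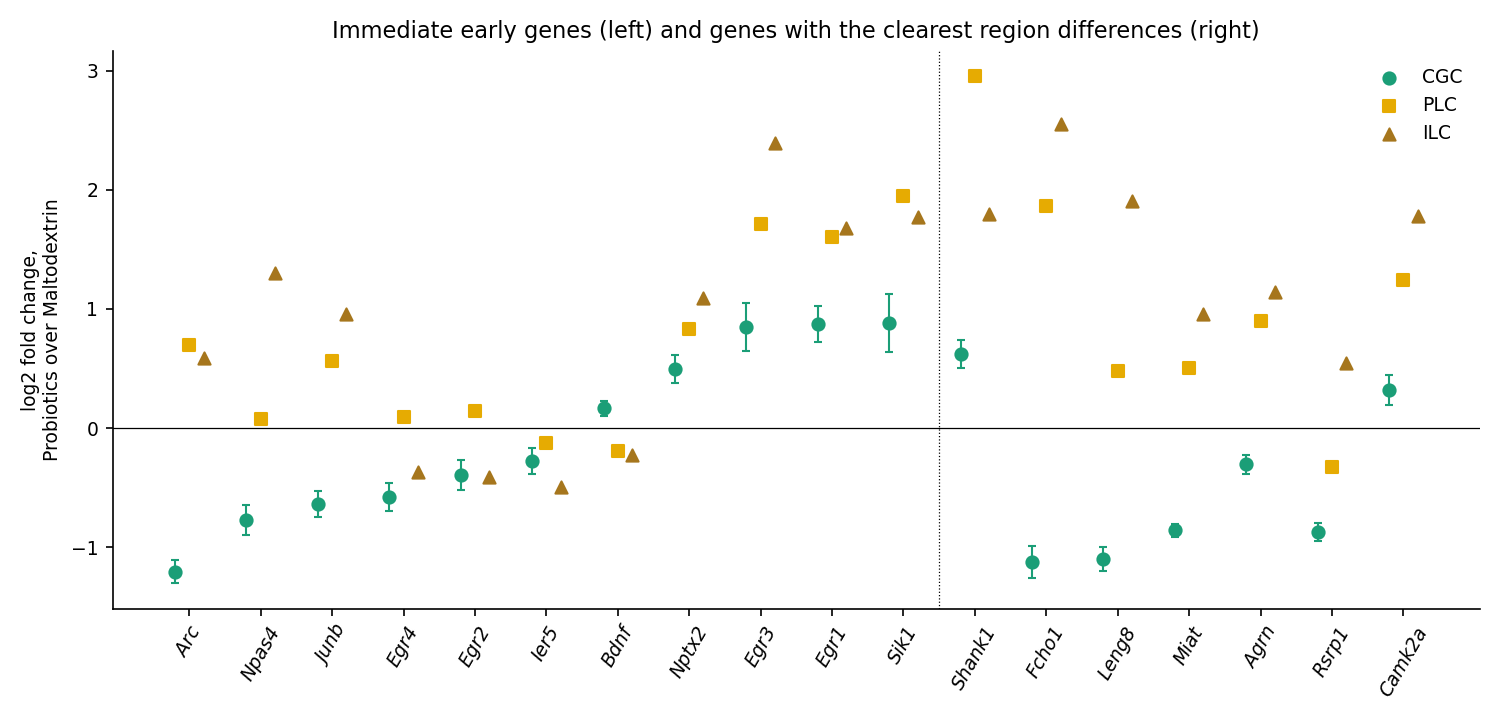
Log2 fold changes, Probiotics over Maltodextrin, in CGC (circles, with SE), PLC (squares) and ILC (triangles) for the 11 immediate early genes called in CGC (left of the dotted line) and 7 genes with a small interaction p (right of it). Arc and Junb lie below 0 in CGC and above 0 in PLC and ILC, Egr1, Egr3, Sik1 and Nptx2 lie above 0 in all 3 regions, and Fcho1 is at -1.12 in CGC against 1.87 in PLC and 2.55 in ILC.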

How the data were processed

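The table that the authors deposited holds raw counts of reads over 17337 gene symbols, all whole numbers, with a column for each of 300 libraries; 0 columns were left unmatched. Per the labels' protocols, libraries were made with a stranded total RNA kit and read as paired ends. Per the submitters' processing notes, STAR, HTSeq and FastQC were used with the rn6 genome; their versions and settings, and any use of strand in counting, are not stated there, so overlapping and antisense genes cannot be told apart.

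The 30 CGC libraries of 6 treatments entered 1 edgeR model (version 4.0.16, under R 4.3.3), using TMM scaling, filterByExpr, the quasi-likelihood F test and Benjamini-Hochberg adjustment over all genes tested. Desipramine replicate 1, the shallowest of the 30 at 841455 counts, was kept in the filter and in the shared estimate of spread. The setting with only the 10 libraries leaves it out. Calls are genes whose adjusted p was under 0.05. The differences of CGC from PLC and from ILC were tested on 20 libraries each, with a block for each treatment and replicate number, region and the region by treatment term. Values per library are CPM from raw totals, with mean ± SD over 5 libraries, while fold changes come from TMM-scaled fits, so small changes can differ between the 2 scales. The median SD between libraries over the 9503 genes that exceeded 5 CPM was 0.0963 in Probiotics and 0.121 in Maltodextrin on the log2 scale; 20 pairs of libraries within groups differed by a chi-square of at least 2.06 per degree of freedom, so none was counted as a repeat. The method was tested on simulated data.

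The comparison and the gene lists were chosen with earlier results of these data known. Genes named are the 10 highest and 10 lowest called genes with mean log2 CPM above 0, an ordinary symbol and ranges apart, the next 5 each way by adjusted p, up to 4 called members per list by p, 11 set genes from Bdnf to Cldn5, and the 5 genes with the smallest p for each region difference. Some genes that this rule picks are not reported here. Further members of lists were named after their values were seen, among them Syp, Egr3, Nptx2, Sik1 and Kcnc2. Promoter and microRNA sequences are RefSeq's for GRCr8. The alternatives were DESeq2 (1.42.0), other size factors, no filter, only the 10 libraries, the replicate number as a block, a test against 1.2-fold, and leaving out each library.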

Additional observations from a re-analysis of the deposited data

Results flagged for a closer look

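Of 350 groups of 5 libraries examined over the named genes, 22 (6.29%) held a library whose gap to its neighbour exceeded Dixon's limit for 5 samples; chance gives about 1 in 20. Of these 22, 9 were in Maltodextrin replicate 3. Its value was high for Tbr1 (18.8 CPM), Csf1r (80.7), Syt1 (499.9), Gria4 (244), Gabrb2 (75.4), Htr2c (33.8), Kcnc1 (80.0) and Nr1h4 (38.7), and low for Lef1 (3.02). Nr1h4, the bile acid receptor FXR, was at 2.63, 1.90, 2.99, 0.90 and 0.27 CPM in Probiotics, against 1.61, 0, 38.7, 0.14 and 1.36 CPM in Maltodextrin. Its log2 change of -2.15 (edgeR adjusted p = 0.0257) was 1.19 (0.141) without that library. Maltodextrin replicate 1 was high for Bc1 (1006 CPM) and Mt2A (41.3) and low for Park7 (461.9). Replicate 2 was low for Agrn (140.3) and Hist3h2a (26.1), and replicate 4 for Gpr17 (3.93) and Sdhd (156.7). In Probiotics, replicate 3 was low for Syn1 (656.9 CPM) and high for Igfbp2 (46.2), Nr1d1 (115.0), Lxn (33.7) and Pink1 (143.3), and replicate 1 was high for Tsnax (71.7).

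For 38 of 52 leading, preset and immediate early genes, the change in CGC differed from that in PLC in the interaction test, beside 39.3% of all genes. These genes were taken for their change in CGC, which enters the difference, for the smallest p of that test, or from a set list, so their count is partly fixed by the choice. The CGC minus PLC difference in log2 change was negative, in order of size, for Fcho1 (-2.96), Shank1 (-2.31), Arc (-1.87), Ackr3 (-1.64), Plk5 (-1.63), Leng8 (-1.55), Spag8 (-1.55), Miat (-1.34), Ccl19 (-1.24), Agrn (-1.18), Junb (-1.18), Sik1 (-1.01), Zfp692 (-0.99), Camk2a (-0.90), Syn1 (-0.86), Egr3 (-0.81), Npas4 (-0.81), Snhg11 (-0.73), Egr1 (-0.70), Egr4 (-0.66), Ttr (-0.60), Rsrp1 (-0.52), Egr2 (-0.51), Tubb4a (-0.37), Nptx2 (-0.32), Ptgds (-0.31), Cldn5 (-0.27) and Gad1 (-0.18). It was positive for Ccdc42 (1.12), Mbp (0.61), Bdnf (0.38), Aif1 (0.32), Gstm1 (0.30), Rab15 (0.28), Atp6v1c1 (0.24), Myl12b (0.23), Cdh13 (0.16) and Slc17a7 (0.16). From ILC, the 5 genes with the smallest p differed by -3.72 (Fcho1), -3.04 (Leng8), -1.87 (Miat), -1.51 (Camk2a) and -1.46 (Rsrp1).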

How the results depend on the processing

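Of 1899 genes higher and 1917 lower, 483 and 418 passed a test against 1.2-fold. The counts stayed within 1.5 times under the other settings: 1917 and 1842 by DESeq2, 1574 and 2251 with upper quartile factors (41.2% of calls higher), 1340 and 2449 with library totals, 2103 and 1807 without a filter, and 2230 and 2179 with only the 10 libraries. Probiotics against Control, another comparison that shares the Probiotics libraries and so no measure of stability, gave 2667 and 2744. Leaving out 1 library gave 1646 to 1730 higher and 1668 to 1780 lower, 4224 to 4552 genes unlike PLC and 3966 to 4510 unlike ILC. Replicate numbers did not pair the libraries, since the correlations of same-numbered libraries were -0.13 to 0.0185; with the replicate block 1896 genes were higher and 1898 lower, and without the block 4393 genes were unlike PLC and 4342 unlike ILC. Over named genes, 2987 of the recomputed values kept direction and call, 281 lost the call, 1 gained it (Fos with library totals, -0.26, adjusted p = 0.0491), and 5 changed sign, by leaving out a library: Nr1h4 (-2.46 to 1.19) and Fkbp5 (-0.0697 to 0.0358); the cause was not tested. Aif1, Cldn5, Abcc9, Des, Slc4a1, Tac1, Crh, Gria2, Gabra2, Gabrd, Htr5a, Htr2a, Bdnf, C5ar1 and Camk2a lost the call in 7 or more of 18 settings.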

Other observations

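Symbols of microRNA genes, looked at after their values were seen, were mostly lower in Probiotics where they were called. MicroRNAs are short RNAs that bind partly matching messages and lower their translation, and their seed, bases 2 to 8, sets which messages they match. Of 455 such symbols in the table, 34 had enough counts to be tested. Of these 34, 1 was higher (Mir3577) and 16 were lower, beside 16% and 16.1% of all genes. Their median log2 fold change was -0.609 against -0.00598 over all genes. The filter kept genes with enough counts in about as many libraries as 1 group holds. A low symbol can therefore have passed mainly through Maltodextrin, such as Mir136, with means of 1.95 CPM there, 0.51 in Probiotics and 0.80 in Control. The split of the 34 and their median are thus partly fixed by the filter. The summed level of all 455 symbols was 155 to 172 CPM in Probiotics and 238 to 340 CPM in Maltodextrin. Mir770 was at 15.0, 18.3, 13.97, 15.3 and 16.2 CPM in Probiotics, against 27.96, 32.9, 43.6, 33.95 and 34.8 CPM in Maltodextrin, without overlap (-1.08 ± 0.14, SE, edgeR adjusted p = 2.26e-07). Mir136 changed by -1.89 (adjusted p = 0.000157) at 0.42 to 0.64 CPM in Probiotics and 1.46 to 2.39 CPM in Maltodextrin. Mir186 and Mir384 changed by -1.45 and -1.37. The 2 tested loci of miR-124, a microRNA abundant in neurons, changed by -1.03 (Mir124-1) and -0.82 (Mir124-2).

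The mature sequences of 4 of them (RefSeq, GRCr8) are shown with the seed in capitals, because the symbols stand for these short products.
rno-miR-770-5p: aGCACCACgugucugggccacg
rno-miR-136-3p: cAUCAUCGucucaaaugagucu
rno-miR-186-5p: cAAAGAAUucuccuuuugggcu
rno-miR-384-5p: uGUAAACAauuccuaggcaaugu
The 4 seeds differ from one another. Total RNA libraries of this kind hold few molecules as short as a mature microRNA, so reads on these symbols cannot be told apart from precursors, host transcripts and overlapping RNAs, and the values are not levels of the mature products.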
